A study of Saccharomyces cerevisiae with 4 samples.

Results

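The pre-mRNA splicing factors described here are the genes whose symbol is PRP, SNU or LSM followed by a number, together with the Sm protein genes SMB1, SMD1, SMD2, SMD3, SME1, SMX2 and SMX3. They were chosen by name only, and 44 of the 5539 genes with named spots met the rule, each with a pair of spots on every array. RNA came from BY4741 yeast lacking SLT2, which encodes the last kinase of the signalling cascade that answers damage to the cell wall. The compared groups were slt2 cells exposed for 4 h to Congo red at 30 µg/ml, an anionic dye that attaches to wall chitin and weakens the wall, and slt2 cells of the same culture left untreated, both grown at 24 °C in YEPD, a rich medium. Both groups lack SLT2, so no value here shows what a strain with the kinase does. Each of 4 arrays with 2 channels held RNA of both groups, with the treated RNA in channel 2 on arrays 1 and 3 and in channel 1 on arrays 2 and 4.

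Splicing removes introns from nuclear transcripts in a particle, the spliceosome, that is assembled anew on each intron from small nuclear RNAs and their proteins. Sm proteins form a ring around the U1, U2, U4 and U5 RNAs, the related Lsm proteins form a ring around U6 RNA and another that promotes decapping and decay of cytoplasmic mRNA, and ATPases drive the rearrangements between steps. In budding yeast few genes carry an intron, but the abundant transcripts of ribosomal proteins often do.

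A value below is the log2 ratio of treated over untreated RNA, averaged over a gene's spots after each array was centred on its median and arrays 2 and 4 were turned to a common sign. A positive value means more RNA in treated cells only if channel 2 is the numerator of the deposited ratios, which is likely but not stated in the sources used here. With channel 1 as the numerator, all signs below reverse together, and had the authors already put treated RNA on top in all 4 columns, the turned values would measure channel order. Before turning, arrays that differed in channel order correlated below 0 over all spots (r from -0.38 to -0.19) and arrays of like order above 0 (r = 0.27 and 0.31). Across the 34 splicing factor genes measured on all arrays, the turned values of array pairs correlated at r between 0.57 and 0.71, and across all 4481 such genes between 0.23 and 0.43. These correlations are descriptions, since genes on one array share its spotting and labelling. Means are given ± SD over the 4 arrays (n = 4). The sources used here do not say whether the arrays came from separate cultures, so the tests measure the spread between arrays, which may be technical. In RNA of a whole culture, fewer cells expressing a gene and less RNA per cell cannot be told apart. The spots of SLT2, deleted in both groups, check no label and stood at 1.48, -1.29, -1.51 and -1.14 on arrays 1 to 4. Alpha-specific genes, which an a-mating strain such as BY4741 should lack, stood below 0 on every array that measured them. STE3 gave -1.19, -1.13, -1.95 and -2.58, and SAG1 gave -0.92, -1.32, -3.01 and -1.05. Large values of 1 sign on all arrays thus also occurred for genes that these cells should not express. The reason was not tested.

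Small-ring proteins lay mostly below 0 and larger spliceosome proteins on both sides of it, a difference that was not tested. Of the 13 Sm and Lsm ring genes measured on all arrays, 8 were lower in treated cells on 4 of 4 arrays, where 21.3% of all genes were, and none was higher on all of them, where 20.4% were. All 13 are at most 600 bp long, and among all genes of that length 44.5% were lower and 8.92% higher on all arrays. With the trend with gene length described below removed, 3 of the 13 were lower and 3 higher on all arrays, where 22.4% and 17.3% of all genes were. Among the larger proteins the U2 subunit gene PRP9, the ATPase genes PRP2 and PRP43 and the U4/U6 protein gene PRP31 lay above 0 on every array, and PRP19, the ubiquitin ligase that names its own complex, lay far below 0. No splicing factor passed limma's test over all genes when every measured spot was used, as was true of all genes (0 of 4481, 0%). PRP19 came closest, with an adjusted p of 0.0522, shared with other genes and the smallest in that analysis. At an unadjusted p under 0.05, 10 of the 34 splicing factor genes passed, 4 higher and 6 lower. Over all genes 27.5% passed, 13.1% higher and 14.4% lower, so the share is close to the background. In a second analysis that kept a gene only where its paired spots lay within 1 log2 unit on each array, 4 of 24 splicing factor genes passed, all lower: SMX3, SNU13, LSM7 and LSM5. There 16.8% of 2804 genes passed, 5.31% higher and 11.5% lower, so 4 of 24 is near the share over all genes. That filter had been taken up in earlier work on these arrays after its calls were known.

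**Figure D1:**
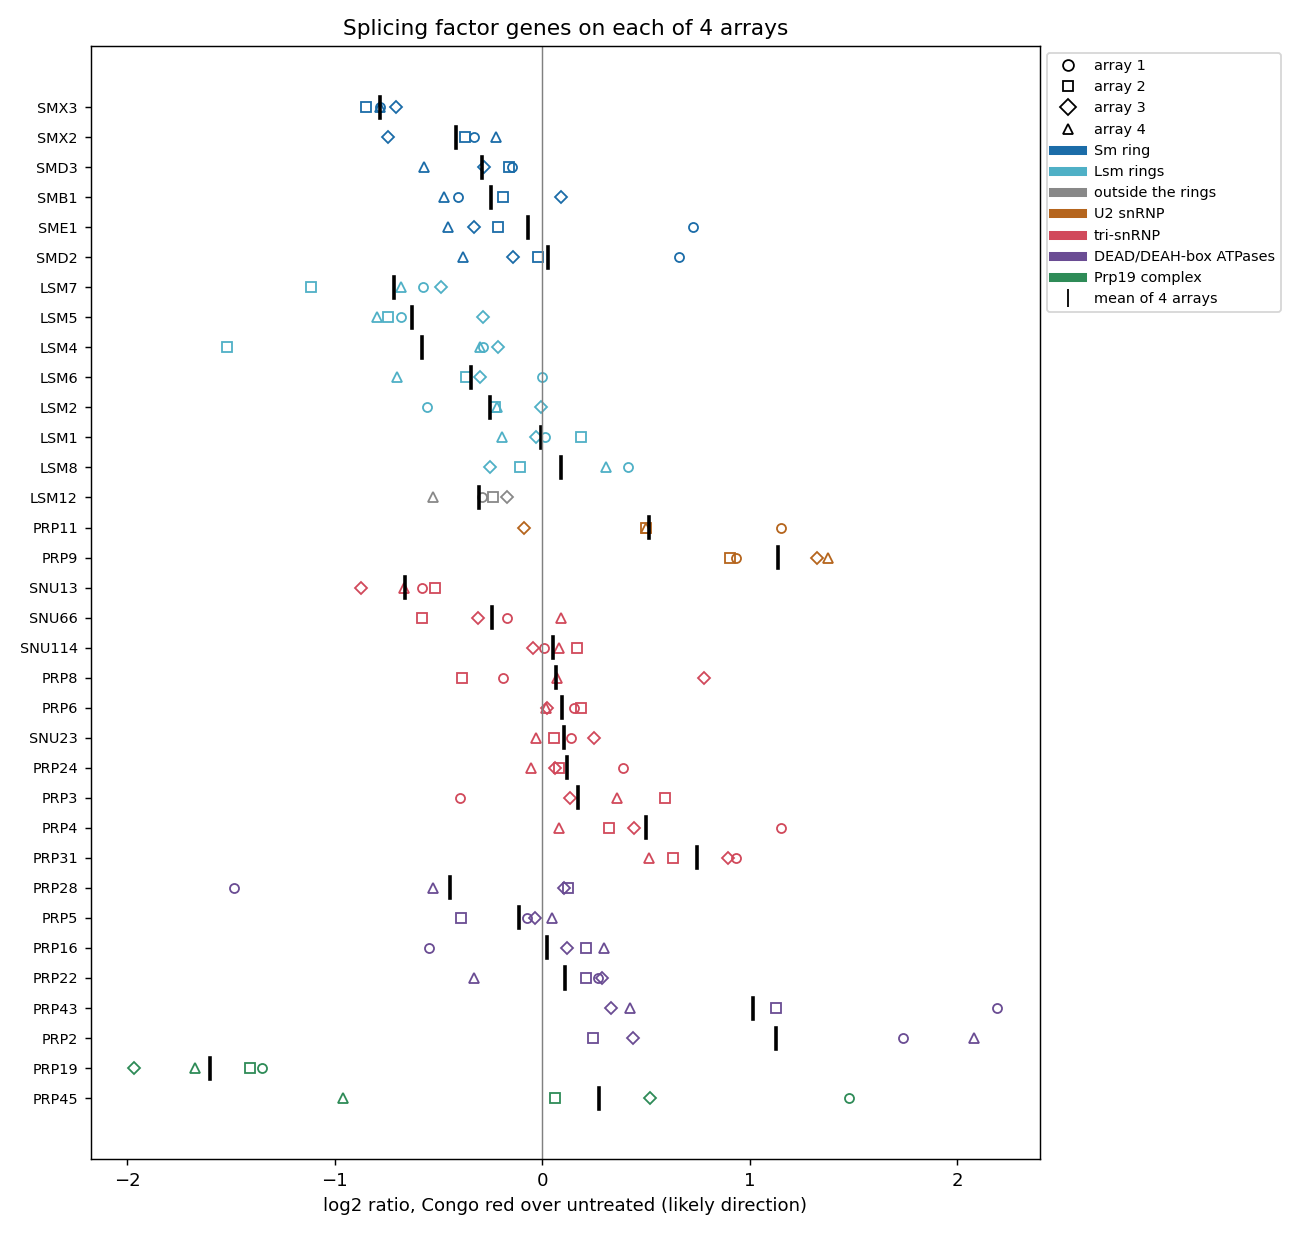
Log2 ratio of treated over untreated RNA (horizontal axis) of the 34 splicing factor genes measured on all 4 arrays, in rows grouped by role, with a marker for each array and a black bar at the mean. The markers of SMX3 lie close together near its mean of -0.78, those of PRP19 are all below -1.3, and those of PRP2 and PRP43 spread over more than 1 log2 unit.

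Sm proteins bind the small nuclear RNAs as a ring on which the particles are built. SMX3, which encodes the ring protein SmF, had log2 ratios of -0.78, -0.85, -0.70 and -0.78 on arrays 1 to 4. It was the most even of the 16 genes followed here by array, at a mean of -0.78 ± 0.06 or 0.583-fold, and it fell in the duplicate-spot analysis (adjusted p = 0.0111, limma). Its 95% confidence interval in the analysis of all spots was -1.07 to -0.48. Removal of the trend with gene length described below brought the mean in the duplicate-spot analysis to -0.34 (adjusted p = 0.10). SMX2, for SmG, gave -0.33, -0.37, -0.74 and -0.22. Every array was below 0, with a mean of -0.42 ± 0.23, and the gene did not pass in the duplicate-spot analysis (adjusted p = 0.072, limma). It passed there with runs of spots centred (adjusted p = 0.0425) and with paired spots held within 0.5 log2 units (adjusted p = 0.0491).

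SMD3, whose product SmD3 sits in the same ring, gave -0.15, -0.16, -0.28 and -0.57, again below 0 on each array (mean -0.29 ± 0.20). SMB1, for SmB, gave -0.40, -0.19, 0.09 and -0.47 (mean -0.24 ± 0.25). Only array 3 was above 0 for SMB1. SME1, for SmE, gave 0.73, -0.21, -0.33 and -0.45 (mean -0.07 ± 0.54), and SMD2, for SmD2, gave 0.66, -0.02, -0.14 and -0.38 (mean 0.03 ± 0.45). In both genes array 1 stood alone above 0. SME1 had a single measured spot on array 1, and the paired spots of SMD2 there read 1.13 and 0.19. SMD1, for SmD1, was measured on arrays 2 to 4 only, at -0.12, -0.38 and -0.48. The 6 Sm genes measured on all arrays had a median of -0.27, beside 0.02 over all genes tested and -0.28 over those up to 600 bp, as all Sm genes are. Their medians were below 0 on each array, at -0.24, -0.20, -0.30 and -0.46.

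Lsm proteins form the U6 ring in the nucleus with LSM8 and the decay ring in the cytoplasm with LSM1, and share the other subunits. The shared subunits stood lower than the subunits that tell the rings apart. LSM7 gave -0.57, -1.11, -0.49 and -0.68 on arrays 1 to 4, a mean of -0.71 ± 0.28 or 0.610-fold, and fell in the duplicate-spot analysis (adjusted p = 0.0199, limma). LSM5 gave -0.68, -0.74, -0.28 and -0.79, a mean of -0.63 ± 0.23 or 0.648-fold, and fell as well (adjusted p = 0.0249, limma). For both genes all 4 arrays were below 0 and the paired spots agreed within 0.3 log2 units. Without the length trend they stood at -0.44 and -0.21 and neither passed (adjusted p = 0.084 and 0.30, limma).

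LSM4 had a mean of -0.58 ± 0.63, set largely by -1.52 on array 2, since the other arrays gave -0.28, -0.21 and -0.30. LSM6 had -0.0017, -0.37, -0.30 and -0.70, and LSM2 had -0.55, -0.23, -0.0053 and -0.22, both below 0 throughout but close to it on array 1 for LSM6 and on array 3 for LSM2. LSM1, specific to the decay ring, averaged -0.0045 ± 0.16, with a 95% confidence interval of -0.33 to 0.33. LSM8, specific to the U6 ring, averaged 0.09 ± 0.32 (interval -0.34 to 0.52), with arrays on either side of 0. The difference between shared and ring-specific subunits was not tested. The 7 Lsm genes had a median of -0.34, beside -0.28 over all genes up to 600 bp. On all arrays 5 of 7 were lower, where 21.3% of all genes and 44.5% of those up to 600 bp were. With the length trend removed, 2 were lower and 2 higher on all arrays. LSM12, an Lsm-domain protein outside these rings, gave -0.29, -0.23, -0.17 and -0.53 (mean -0.30 ± 0.15), and passed in the duplicate-spot analysis only with runs of spots centred (-0.38, adjusted p = 0.0335, limma). LSM3 was not analysed here. Among 10 genes for partners of the decay ring in decapping and decay, the median was 0.06, 1 was higher and 2 were lower on all arrays, and none passed in either analysis. Their unadjusted p was under 0.05 (limma) for 1 of 10 with all spots and 3 of 8 with duplicate spots, where 27.5% and 34.9% of all genes had one.

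Tri-snRNP proteins bring U4, U6 and U5 RNA into the assembling spliceosome. SNU13, which binds a stem of U4 RNA and also the guide RNAs that direct methylation of ribosomal RNA, gave -0.58, -0.52, -0.87 and -0.67. All arrays were below 0, the paired spots lay within 0.1 log2 units of each other, and the mean was -0.66 ± 0.16 or 0.633-fold. It fell in the duplicate-spot analysis (adjusted p = 0.0173, limma) and stood at -0.34 without the length trend, where it did not pass (adjusted p = 0.13). PRP31, which binds beside SNU13 on U4 RNA, lay on the other side of 0, at 0.94, 0.63, 0.89 and 0.52. Its mean was 0.74 ± 0.20 or 1.68-fold (adjusted p = 0.0679, limma). It was left out of the duplicate-spot analysis because array 4 had a single measured spot. PRP4, of the U4/U6 particle, gave 1.15, 0.32, 0.44 and 0.08 (mean 0.50 ± 0.46), positive on every array but decided in size by array 1. Its spots on array 4 lay on either side of 0, at 0.57 and -0.41.

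The large core proteins that met the name rule averaged near 0. PRP8, the scaffold of the catalytic centre, averaged 0.07 ± 0.51, with 0.78 on array 3 against -0.39 on array 2. Its 95% confidence interval was wide, from -0.52 to 0.66. SNU114, a GTPase that contacts it, averaged 0.05 ± 0.09, and PRP6, which bridges the particles, 0.10 ± 0.09, the narrowest spreads among tri-snRNP genes. Their 95% confidence intervals were -0.25 to 0.36 and -0.21 to 0.40. PRP24, which anneals U4 to U6 RNA, PRP3 and SNU23 averaged 0.12 ± 0.19, 0.17 ± 0.42 and 0.10 ± 0.12, and SNU66 averaged -0.24 ± 0.28. The spots of SNU66 on array 1 read 0.73 and -1.07. PRP38, needed to activate the assembled particle, had values on arrays 1 and 4 only (-1.95 and -0.88), and on each its paired spots differed by over 1 log2 unit.

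PRP9, PRP11 and PRP21 encode the SF3a subunits of the U2 particle, which recognises the branch point. All were above 0 on average. PRP9 gave 0.93, 0.91, 1.32 and 1.38, a mean of 1.14 ± 0.25 or 2.20-fold (adjusted p = 0.0550, limma; 95% confidence interval 0.75 to 1.52). Array 4 had a single spot for PRP9, which kept it out of the duplicate-spot analysis. PRP11 gave 1.15, 0.50, -0.09 and 0.50 (mean 0.52 ± 0.51), and its spots on array 4 read -0.03 and 1.03. PRP21 had no value on array 1 and gave 0.35, 1.34 and 0.29 on arrays 2 to 4. The 3 genes thus lay above 0 in 10 of 11 measured values.

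Among ATPases, PRP2, which triggers the first catalytic step, gave 1.74, 0.24, 0.44 and 2.08 on arrays 1 to 4. PRP43, which takes the spent spliceosome apart and also acts in ribosome assembly, gave 2.19, 1.12, 0.33 and 0.43. All values of both genes were above 0, but they ranged widely, with means of 1.13 ± 0.92 and 1.02 ± 0.86. Neither passed (adjusted p = 0.15 and 0.16, limma), and neither entered the duplicate-spot analysis, since the spots of PRP2 read 1.30 and 2.87 on array 4 and PRP43 had a single spot on array 1. The other ATPases stood nearer 0. PRP5, which acts on U2 RNA, averaged -0.11 ± 0.19, PRP16, which acts at the second step, 0.02 ± 0.39, and PRP22, which releases the mRNA, 0.11 ± 0.29. PRP28, which displaces U1 RNA, averaged -0.44 ± 0.76, but its spots on array 1 read 0.98 and -3.95.

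The Prp19 complex stabilises the activated spliceosome. PRP19 (locus YLL036C) gave -1.35, -1.41, -1.97 and -1.67 on arrays 1 to 4, a mean of -1.60 ± 0.28 or 0.330-fold (adjusted p = 0.0522, limma), with a 95% confidence interval of -2.01 to -1.19. Its 7 measured spots ranged from -1.97 to -0.99, so every spot was below 0. With the length trend removed it stood at -1.71 and passed over all genes (adjusted p = 0.0413, limma), where 0.559% of genes did. It did not pass under moderation with trend and robust options (adjusted p = 0.144, limma). Nor did it with channel order as a second coefficient (adjusted p = 0.0966, limma). It had a single spot on array 3 and so was left out of the duplicate-spot analysis. PRP45, a protein linked to this complex, averaged 0.28 ± 1.01, ranging from -0.96 to 1.48, with spots on arrays 1 and 4 that differed by over 1 log2 unit. PRP46, a WD-repeat protein beside it, gave -2.18, -6.45 and 2.93 on arrays 1, 3 and 4, values with no common direction.

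The U1 particle recognises the start of the intron, and its genes that met the name rule were the least completely measured. None of these 5 genes had a value on all 4 arrays, where 80.9% of all genes did. MUD1, SNP1, YHC1 and LUC7, U1 protein genes outside the rule, had values on all 4 arrays. NAM8, also outside it, had none on array 4. They are counted below among other spliceosome proteins. PRP40, which contacts the branch point protein, gave 0.83, 1.31 and 1.31 on arrays 2 to 4 (mean 1.15 ± 0.27, n = 3). Its spots on array 3 read 1.85 and 0.77, and array 4 had a single spot. PRP39 gave -1.43, -1.45 and -0.98 on arrays 1, 2 and 4 (mean -1.29 ± 0.27, n = 3), with a single spot on array 2. These U1 genes thus lay on opposite sides of 0 with no overlap, and in a fit of the 5171 genes on at least 3 arrays their adjusted p was 0.0855 and 0.0812 (limma), with no gene past the threshold. PRP42 gave -6.15 and -4.95 on arrays 1 and 2, each from a single spot, SNU71 gave -1.62 and -0.94 on arrays 1 and 4, and SNU56 gave 0.73 on array 1 alone. PRP18, a factor of the second catalytic step, gave -1.07, -2.85 and -3.13 on arrays 1 to 3. Its values on arrays 2 and 3 each came from a single spot. Of the 6 genes with values on 3 arrays, PRP18, PRP39 and SMD1 were below 0 on each and PRP21 and PRP40 above it. How many of all 690 genes on 3 arrays kept 1 sign was not counted, so these signs are a description only. Signal over background is not part of the deposited ratios used here, so whether these genes were dim was not tested.

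**Figure D2:**
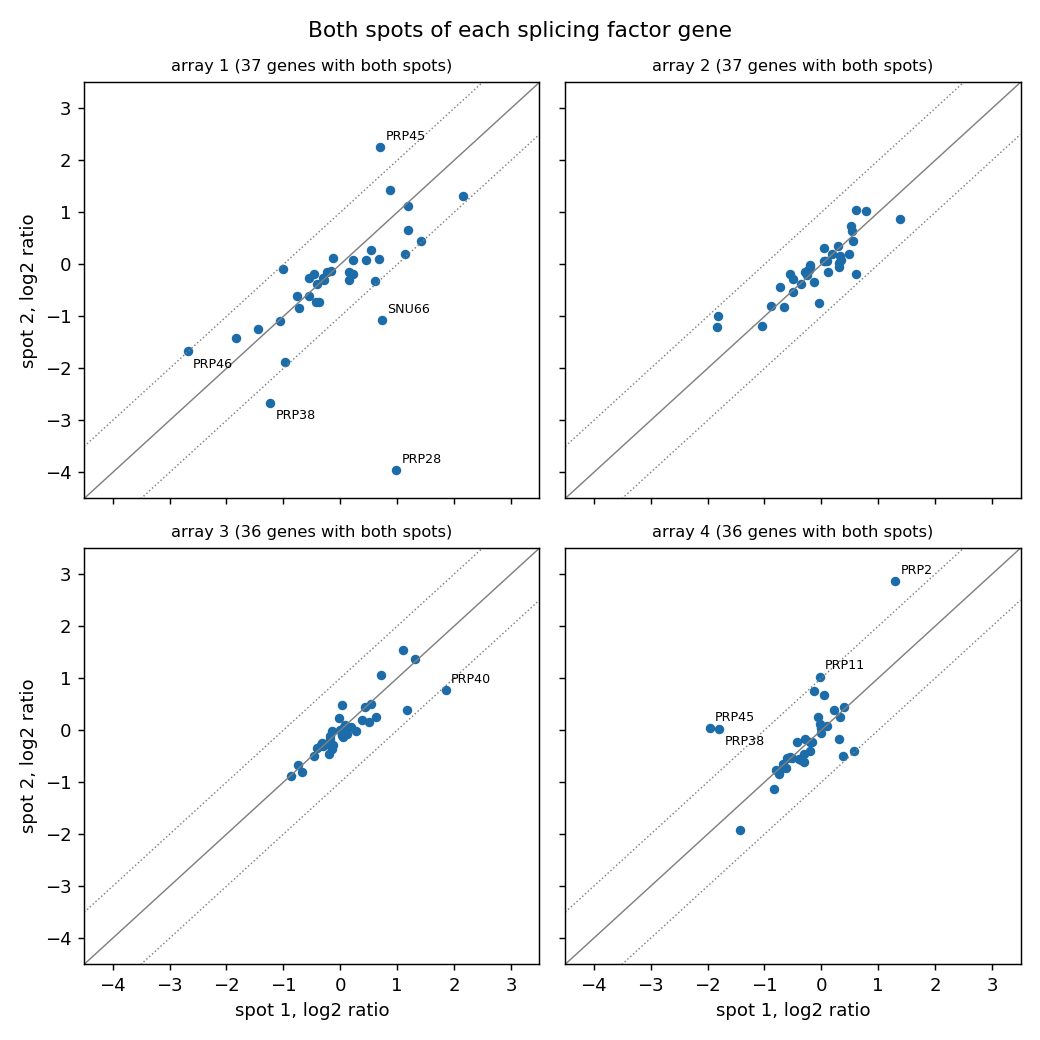
Log2 ratios of the 2 spots of each splicing factor gene (spot 1 on the horizontal and spot 2 on the vertical axis), 1 panel for each array, with the line of equality and dotted lines 1 log2 unit away. All 37 pairs on array 2 lie within the dotted lines, and the labelled genes, 5 on array 1, 1 on array 3 and 4 on array 4, lie outside.

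Paired spots of splicing factor genes differed by at most 1 log2 unit for 86.5%, 100%, 97.2% and 88.9% of the measured pairs (arrays 1 to 4), beside 81.1%, 91.9%, 91.6% and 86.8% over all genes with a pair. Completeness differed with gene size: 15 of 17 splicing factor genes up to 600 bp entered the duplicate-spot analysis and 9 of 27 longer ones did. Of its 24 splicing factor genes, 12 are ring genes.

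Gene length moved with the ratios. Over the 34 genes the rank correlation of the mean ratio with the length of the gene's span was 0.51, and over 4476 genes 0.23, descriptions in which genes are not independent. The 16 measured splicing factor genes up to 600 bp had a median of -0.30, with 10 lower and none higher on all arrays. All 695 genes of that length had a median of -0.28, and 44.5% were lower on all arrays. The 18 longer splicing factor genes had a median of 0.11, with 6 higher and 1 lower on all arrays, beside a median of 0.07 and 22.4% higher and 17.1% lower among 3781 longer genes. The median of the short splicing factor genes was thus near that of short genes in general. Their share lower on all arrays was 62.5%, a difference from 44.5% that was not tested. With the length trend removed, 31.3% of them were lower and 25% higher on all arrays. Among all genes up to 600 bp, 24.7% and 20% then were. After a smooth trend with length was removed from each array, the Sm genes had a median of 0.05 and the Lsm genes of 0.0073, and the rank correlation over the 34 genes was -0.01. In the duplicate-spot analysis none of 24 then passed, where 7% of all genes did, 3.96% lower. The means of 10 of the 34 genes changed sign, 6 of them ring genes that had been below 0: SMX2 (0.03), SMD3 (0.07), SME1 (0.31), LSM6 (0.07), LSM2 (0.0073) and LSM1 (0.18). The other 4 were PRP16, PRP22, PRP6 and SNU114, now below 0, while SMX3 (-0.37), LSM7 (-0.48), LSM4 (-0.42) and SNU13 (-0.37) stayed below 0. The 600 bp boundary was set after the lengths and ratios had been seen, and the spans of LSM2 and LSM7 include an intron.

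**Figure D3:**
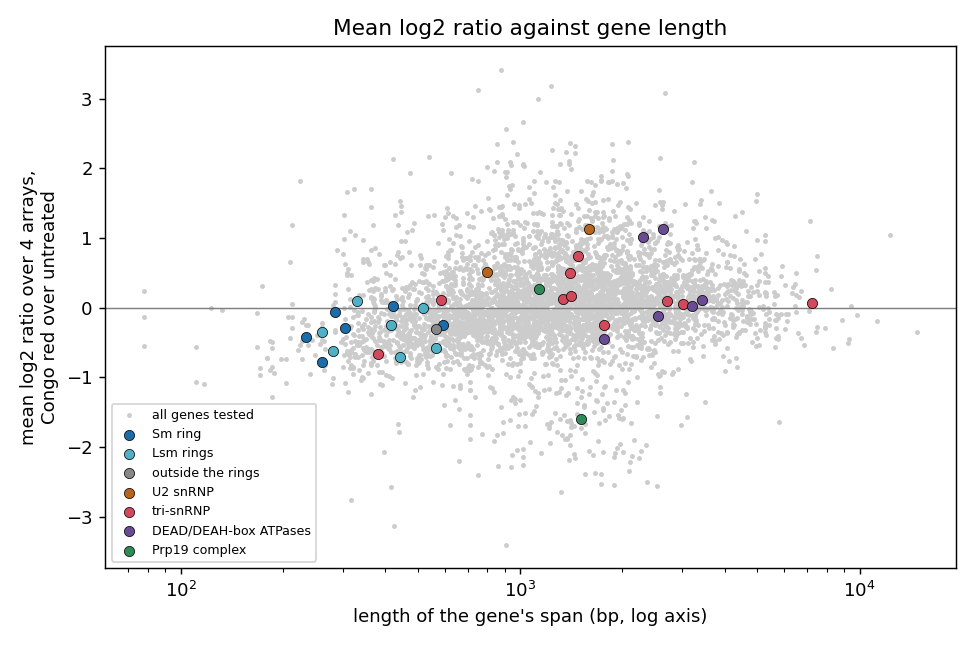
Mean log2 ratio over 4 arrays (vertical axis) against the length of the gene's span in bp on a log axis, for all genes tested (grey) and the 34 splicing factor genes (coloured by role). The Sm and Lsm genes lie at the short end with a median of -0.27 and -0.34, and PRP19 lies apart at -1.60 among genes of middle length.

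**Figure D4:**
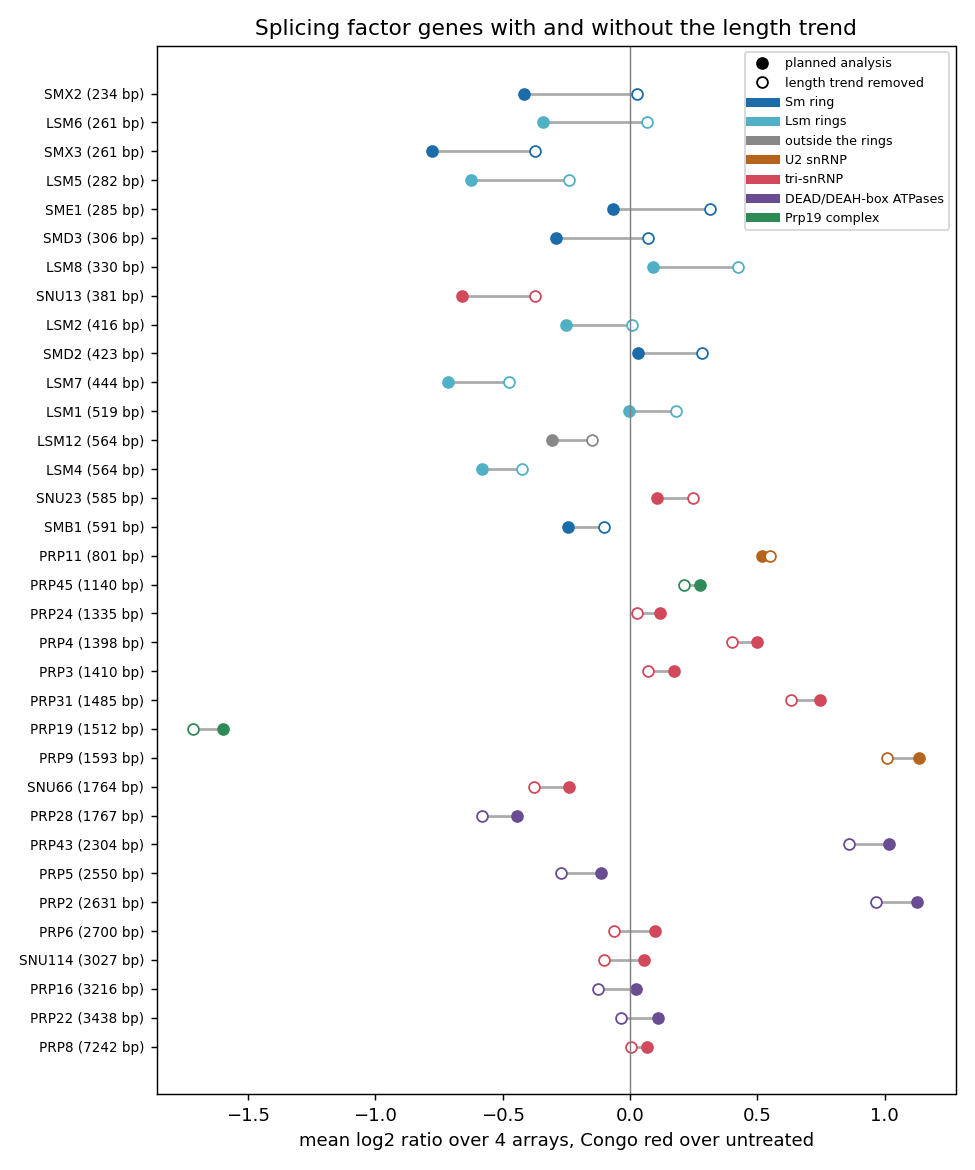
Mean log2 ratio (horizontal axis) of the 34 splicing factor genes, ordered from short to long, with all spots (filled) and after removal of the trend with length (open). Short genes move to the right, such as SMX3 to -0.37, and PRP19 (-1.71) and PRP9 (1.01) keep their distance from 0.

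Place in the deposited order of spots also moved with some values. Whether that order follows position on the array was not tested. In table order, the medians of runs of 400 spots, after centring and turning, ranged from -0.43 to 0.43 on array 1, from -1.33 to 0.41 on array 2, from -0.38 to 0.32 on array 3 and from -0.20 to 0.28 on array 4. LSM4 lies in a run whose median on array 2 was -0.91. With each run centred, its value on that array was -0.61 in place of -1.52. SMX3 and LSM5 share a run with medians of -0.40, -0.0068, -0.08 and 0.24, and with it centred the values of SMX3 were -0.38, -0.84, -0.62 and -1.02, less even than before but still all below 0. LSM7 became more even, at -0.70, -0.67, -0.60 and -0.63. With runs centred, 5 of 34 splicing factor genes passed with all spots, where 214 of 4481 genes did: LSM7 (-0.65), PRP19 (-1.55), PRP31 (0.67), PRP9 (1.01) and SNU13 (-0.85), with adjusted p between 0.0412 and 0.0466 (limma). The means of 7 of the 34 changed sign, all of them genes within 0.25 log2 units of 0 before. PRP6 then averaged -0.08 ± 0.24 in place of 0.10 ± 0.09, so its narrow spread was lost, and PRP5 averaged 0.24 ± 0.19 and lay above 0 on every array.

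Channel order was tested as a second coefficient. No splicing factor gene passed for it (0 of 34, 0% of all genes), and none had an unadjusted p under 0.05 (limma), beside 4.06% of all genes. The arrays were turned by a rule that used their correlations, which favours the treatment coefficient over this one, so their sizes are not compared. PRP45 had the largest channel-order coefficient, 0.72.

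Other spliceosome proteins from a textbook list were spread on both sides of 0. Of 49 on the array, 34 were measured on all arrays, with a median of 0.11, 9 higher and 6 lower on all arrays (20.4% and 21.3% of all genes were), and none passed with all spots. In the duplicate-spot analysis 1 of 26 passed, where 16.8% of all genes did: BRR2, the helicase that unwinds U4 from U6 RNA, gave 0.35, 0.77, 0.64 and 0.21 (mean 0.49 ± 0.26, adjusted p = 0.0495, limma). BRR2 did not pass without the length trend (0.44, adjusted p = 0.097). Genes with an intron outside the ribosome, whose transcripts these factors process, had a median of -0.10 over 78 genes, with 13 higher and 26 lower on all arrays, or 16.7% and 33.3%. In the duplicate-spot analysis 7 of 51 passed, 1 higher and 6 lower, close to the 16.8% over all genes. SEC27, a coat protein of Golgi vesicles, rose to 0.66 ± 0.17 (adjusted p = 0.0173, limma). NCE101 (-1.08 ± 0.44), PSP2 (-0.69 ± 0.29), SAR1 (-0.58 ± 0.22), the GTPase that starts vesicle budding from the endoplasmic reticulum, and SFT1 (-0.51 ± 0.16), a Golgi SNARE, fell, as did MMS2 (-0.46 ± 0.17, adjusted p = 0.0446), a ubiquitin-conjugating enzyme variant, and LSM7, which is on this list too. Without the length trend SEC27 and PSP2 still passed (adjusted p = 0.048 and 0.0288), and NCE101, SAR1, SFT1, MMS2 and LSM7 did not.

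Leaving out arrays changed the calls more than the values. SMX3 stood between -0.80 and -0.76 whichever array was left out, SNU13 between -0.71 and -0.59, LSM7 between -0.79 and -0.58, and LSM5 between -0.74 and -0.57. In the duplicate-spot analysis SMX3, SNU13 and LSM7 passed without array 1, SMX3 and SNU13 passed without array 2, and no gene of the whole table passed without array 3 or without array 4. PRP19 stood between -1.68 and -1.48 and PRP9 between 1.05 and 1.21 with all spots, without passing. The mean of PRP43 was 0.63 without array 1 and that of PRP4 was 0.28 without array 1, each lower by over 1.5 times than with all arrays, and that of PRP2 was 0.81 without array 4.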

How the data were processed

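The file held the authors' deposited log2 ratios of the 2 channels, per spot, for 12800 spots on 4 arrays. The sources used here give no scanning, filtering or normalization. The top value of 16.61, the log2 of 100000, was taken as a placeholder and set to missing, at 31 to 68 spots per array. Most other missing spots had no deposited ratio. In all, 84.1% to 90.9% of spots had a ratio. Spot signal was not analysed, and the number of arrays limits precision. The deposited medians were 0.43, -0.25, 0.30 and 0.64, so each array was centred on its median. Arrays 2 and 4 were multiplied by -1, since they correlated below 0 with arrays 1 and 3. Symbols came from the platform annotation, updated through a RefSeq gene table (assembly R64), which also gave span lengths. The 4 arrays formed 1 group.

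Genes measured on all arrays were fitted with limma 3.58.1 in R 4.3.3 (lmFit, eBayes) against 0, with Benjamini-Hochberg adjustment over all genes and a threshold of 0.05. The duplicate-spot analysis required at least 2 spots within 1 log2 unit on each array. The length trend was a loess curve (span 0.5) per array. The scripts were tested on simulated data. Alternatives were no centring, runs of 400 spots centred, the length trend, moderation with trend and robust options, the placeholder kept, channel order, 3 arrays, a stricter spot range and each array left out. Values by array are given for the 12 genes of smallest p, those called with duplicate spots and the Sm genes, and for LSM4, LSM6, LSM2, PRP11 and BRR2, added after their values were seen, as was MMS2. The genes, lists and rules were chosen with earlier results of these data known. No sequence was used here.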

Additional observations from a re-analysis of the deposited data

Results flagged for a closer look

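For 2 of the 34 splicing factor genes measured on all 4 arrays, 1 array stood far from the other 3 by Dixon's criterion, which chance meets in about 1 of 20 groups. LSM4 read -1.52 on array 2, and -0.28, -0.21 and -0.30 on arrays 1, 3 and 4. Its mean of -0.58 ± 0.63 therefore rests mostly on array 2, where both of its spots were low and the run of spots around it had a median of -0.91. PRP22 read -0.33 on array 4, and 0.27, 0.21 and 0.29 on arrays 1 to 3.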

How the results depend on the processing

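Of 34 splicing factor genes measured with all spots, 0 passed, and 5 passed with runs of 400 spots centred and 1 with the length trend removed (PRP19). Under the duplicate-spot filter, which kept 24 of them, 4 passed. Over all genes those settings called 214 of 4481, 25 of 4476 and 472 of 2804. Values as deposited, uncentred, called 93 genes and 0 splicing factors. Without centring the median of the splicing factors was 0.093 in place of 0.0087, and 4 were lower and 2 higher on all arrays, in place of 11 and 6. Under the spot filter 10 of the 24 genes kept were lower and 2 higher on all arrays. With 1 array left out, 0 passed each time, the median ran from -0.098 to 0.019, and 11 to 14 were lower and 6 to 10 higher on all remaining arrays. In the duplicate-spot analysis 4 of 24 passed, 0 without centring (59 of all genes) and 0 with the length trend removed (196). With runs of 400 spots centred 6 passed (615 of all genes), with SMX2 and LSM12 gained. With a spot range of at most 0.5, 5 of 14 passed (465 of 2133), with SMX2 gained. With genes on at least 3 arrays 7 of 35 passed (464 of 3882). The genes gained there were PRP19 (-1.48), PRP9 (1.05) and PRP31 (0.82), each from 3 arrays. With 1 array left out, between 0 and 3 passed (0 to 336 of all genes). The median in the duplicate-spot analysis, -0.06, became 0.025 without centring and -0.297 with a spot range of at most 0.5. It ran from -0.168 to 0.032 with 1 array left out. Why centring changes these calls was not tested. Of 304 values of the 16 genes followed through the alternatives, 293 kept their sign and 11 did not. The 11 belonged to SME1, SMX2, SMD3 and SMD2, none of which passed there. The number of arrays and the unmeasured spots limit all of these values. Each of the 4 arrays paired both RNAs within itself, so the test of its log ratio against 0 was already a paired comparison.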
